A study of Mus musculus with 6 samples.

Results

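The miR-10, miR-99/100 and miR-125 families were taken as 7 mature miRNAs by the names on the array, namely mmu-miR-10a-5p, mmu-miR-10b-5p, mmu-miR-99a-5p, mmu-miR-99b-5p, mmu-miR-100-5p, mmu-miR-125a-5p and mmu-miR-125b-5p, of 1963 miRNA probes in all. The prefix mmu, for mouse, is left out below. Lung RNA came from C57Bl6 wild-type mice, 3 untreated WT mice that received saline and 3 WT-BLM mice that received bleomycin (BLM) at 1.5 U/kg body weight through the trachea. BLM breaks DNA, and given into the airways it leads to lung scarring. Lungs were collected at day 21, and the mice of the study were 8 to 10 weeks old when used. All 6 arrays carried 1 dye and 1 mouse each, and each lung was used whole, so that RNA of every lung cell type was mixed. The question was which of these miRNAs stood at another level after BLM than after saline.

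A miRNA guides a repressor complex to messenger RNAs that pair with its seed, which is the stretch of bases near its 5′ end. The miR-10 genes lie inside the Hox clusters, which hold the patterning genes of the body axis, and miR-10a is also known for restraining NF-κB signalling in endothelium. The miR-99 and miR-100 miRNAs are known repressors of the growth kinase mTOR, and the miR-125 miRNAs are the vertebrate relatives of the worm timing miRNA lin-4 and repress Lin28. Genes of the miR-99/100 and miR-125 families stand beside let-7 genes in the genome and are thought to be made from shared transcripts.

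The sequences are shown first because they define the families and because probes for such similar miRNAs may bind one another. All 7 array sequences were identical to the mature miRNAs in RefSeq, and the seed, bases 2 to 8 from the 5′ end, is in capitals.
miR-10a-5p: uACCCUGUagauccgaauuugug
miR-10b-5p: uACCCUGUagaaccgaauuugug
miR-99a-5p: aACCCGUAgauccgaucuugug
miR-99b-5p: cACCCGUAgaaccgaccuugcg
miR-100-5p: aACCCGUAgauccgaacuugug
miR-125a-5p: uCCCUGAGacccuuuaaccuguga
miR-125b-5p: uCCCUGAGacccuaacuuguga

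The 7 miRNAs carried 3 seeds. With positions numbered from 1 at the 5′ end, and the base of the miRNA named first written first, miR-10a-5p differed from miR-10b-5p by U12A only and miR-99a-5p from miR-100-5p by U16A only. From miR-99a-5p to miR-99b-5p there were 4 changes, A1C, U11A, U16C and U21C. Across the families, miR-10a-5p and miR-100-5p had different seeds but shared a run of 11 bases, guagauccgaa, and were 3 single-base edits apart. The miR-125 miRNAs shared their first 13 bases, ucccugagacccu, and were likewise 3 edits apart. No other miRNA on the array had the seed of miR-10 or of miR-99/100, while the seed of miR-125 was also present in miR-351-5p, miR-6367 and miR-6394. These are shown with the shared seed in capitals.
miR-351-5p: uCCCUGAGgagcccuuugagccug
miR-6367: uCCCUGAGacccugguucagga
miR-6394: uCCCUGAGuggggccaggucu

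In the mouse assembly GRCm38.p6 of RefSeq, all loci of the 7 miRNAs are on the plus strand. The mature miR-10a-5p is at chr11:96317186-96317208, inside the span of Hoxb3 and between Hoxb5 and Hoxb4. The mature miR-10b-5p is at chr2:74726074-74726096, inside the spans of Hoxd3 and Hoxd4. On chromosome 17 miR-99b-5p at chr17:17830194-17830215, let-7e-5p and miR-125a-5p at chr17:17830817-17830840 follow each other, with 623 bases from the start of the first to the start of the last, and the hairpins of let-7e and miR-125a are within the span of Spaca6. On chromosome 16 miR-99a-5p, at chr16:77598940-77598961, is followed by let-7c 732 bases on and by a copy of miR-125b-5p at chr16:77646279-77646300. On chromosome 9 miR-100-5p, at chr9:41531437-41531458, stands 50503 bases before the other copy of miR-125b-5p, at chr9:41581940-41581961, both inside the long RNA gene Mir100hg, with let-7a-2 between them. The probe for miR-125b-5p cannot tell its copies apart. Their 3p arms do differ, as the following sequences show.
miR-125b-1-3p: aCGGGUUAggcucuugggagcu
miR-125b-2-3p: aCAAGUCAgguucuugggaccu

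Intensities are given as log2 values after background correction, quantile normalization between arrays and averaging of the 2 spots that each probe had. Detection on an array required the mean of both spots to be over 3 SD above the median of the 800 empty spots. The 275 miRNAs detected on at least 3 arrays were tested, and the number detected was between 132 and 365 per array. The arrays of untreated WT mouse 3 and WT-BLM mouse 1 stood apart, with an SD of the empty spots of 59.3 and 45.2 against 8.01 to 18.1 on the others, so that values without both are given after those of the members. Among markers of lung cell types, all 5 miRNAs of the epithelial list, 4 of 4 of white blood cells, both of smooth muscle and the endothelial miR-126a-3p were detected on all 6 arrays, and so was 1 of 3 of red blood cells. Of the defining miRNAs of other organs, liver miR-122-5p and brain miR-124-3p were each detected on 1 array and brain miR-9-5p on none. Of 5 heart and skeletal muscle miRNAs, miR-1a-3p was detected on all 6 arrays, miR-133a-3p and miR-133b-3p on 5 each and miR-208a-3p on 3. The last, miR-206-3p, was detected only in untreated WT mouse 2, at 10.32 against 6.12 to 6.44 in the other mice. The log2 of the summed level of these 5 miRNAs was between 10.35 and 13.64 in untreated WT lungs, highest in mouse 2. It was between 10.73 and 11.24 in WT-BLM lungs. That of both endothelial miRNAs was between 12.80 and 14.02 against 13.98 and 14.41, and that of both smooth muscle miRNAs between 14.45 and 14.75 against 13.80 and 14.46. The endothelial and smooth muscle ranges overlapped only at their ends, while those of the heart and skeletal muscle, other lung and blood lists overlapped more widely. The lowest smooth muscle value was that of WT-BLM mouse 1, where miR-143-3p stood at 11.64 and miR-145a-5p at 13.44. The part of these lists in the results was not tested.

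All 7 miRNAs were detected on all 6 arrays, as were 116 of the 275 tested. None of them passed the test between WT-BLM and untreated WT lungs. No member had a Benjamini-Hochberg adjusted p under 0.05 in limma, where 0% of all 275 did, and none had an unadjusted p under 0.05, where 1.82% of all 275 did. The groups overlapped for all 7, while over all 275 miRNAs 4.73% had groups that did not overlap. With the methods' t-test, paired by mouse number or not, again 0 of the 7 had an unadjusted p under 0.05. The mean was higher in WT-BLM lungs for 3 of the 7, where 56.4% of all tested miRNAs were higher, and lower for 4, where 43.6% were lower. This balance moved with the scaling, with 5 of 7 higher without normalization, with cyclic loess and with the 75th percentile of all probes, and 2 of 7 with that of the probes detected on all arrays. The median log2 fold change of WT-BLM over untreated WT was -0.0032 for the 7 and 0.04 for all 275, and the 7 values lay between -0.44 and 0.59. With 3 mice a group an exact permutation test, taken two-sided, reaches a p of 0.10 at the lowest, and its p for the 7 lay between 0.4 and 1. In whole lung fewer cells of a type and less miRNA per cell cannot be told apart.

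**Figure D1:**
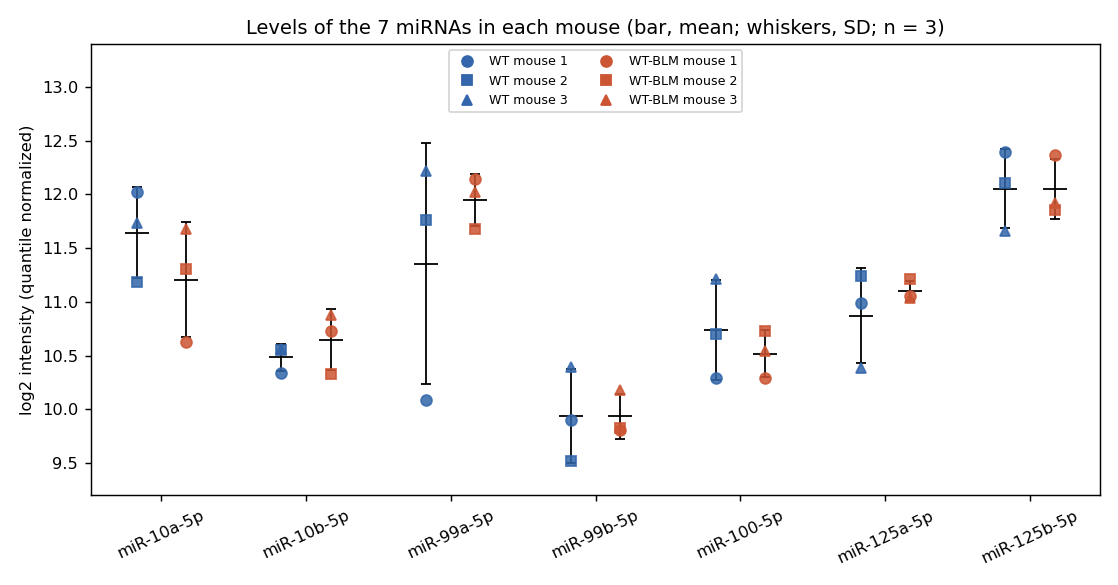
Log2 intensity of each miRNA (y axis) in every mouse, with untreated WT in blue and WT-BLM in red, the group mean as a bar and the SD as whiskers (n = 3). The groups overlap for all 7, and the low point of miR-99a-5p at 10.09 belongs to untreated WT mouse 1; heights of different miRNAs are not comparable, since each has its own probe.

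Of the Hox-cluster miRNAs, miR-10a-5p had a log2 intensity of 12.02, 11.18 and 11.73 in untreated WT mice 1, 2 and 3, against 10.63, 11.31 and 11.68 in WT-BLM mice 1, 2 and 3. Only 1 WT-BLM mouse, mouse 1, was lower than all untreated WT mice, and the others lay within the range of the untreated WT group. The means were 11.64 ± 0.43 (SD, n = 3 mice) and 11.20 ± 0.53, which made a log2 fold change of -0.44 (standard error, SE, 0.35) with an adjusted p of 1 in limma. The lower value of WT-BLM mouse 1 came from 1 spot. Its spots stood at 2410 and 687 intensity units above the median of the empty spots, a log2 difference of 2.04, while those of the other mice differed by 0.28 or less. The log2 fold change became -0.15 when WT-BLM mouse 1 was left out, and likewise -0.15 when spots that differed by over 1 on the log2 scale, called discordant here, were left out. Without untreated WT mouse 2 it was -0.67, and the groups then did not overlap, as for 14.2% of all 275 miRNAs in that setting.

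The level of miR-10b-5p, which lies in the Hoxd cluster, was 10.33, 10.56 and 10.56 in untreated WT mice, against 10.73, 10.33 and 10.88 in WT-BLM mice. Here 2 WT-BLM mice were above every untreated WT mouse, and WT-BLM mouse 2 was level with the lowest of them. The log2 fold change was 0.16 (SE 0.23, limma with adjusted p = 1), with a 95% interval from -0.38 to 0.71. With the arrays scaled to the 75th percentile of the probes detected on all of them, which moved the median of all 275 miRNAs from 0.04 to -0.22, it was -0.062. It lay between 0.046 and 0.33 with mice left out, and at 0.33, without WT-BLM mouse 2, the groups did not overlap, as for 10.2% of all 275. Both spots of this probe differed by at most 0.55 on the log2 scale. Among the 7, its levels varied least, with an SD over the 6 mice of 0.22.

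Of the miR-99/100 family, miR-99a-5p had the largest log2 fold change of the 7. Its log2 intensity was 10.09, 11.76 and 12.22 in untreated WT mice, against 12.14, 11.68 and 12.02 in WT-BLM mice. Untreated WT mouse 1 stood apart below the other 5 mice, which all lay between 11.68 and 12.22. The means were 11.35 ± 1.12 and 11.95 ± 0.24 (SD, n = 3 mice), with a log2 fold change of 0.59 (SE 0.52, limma with adjusted p = 1) and a 95% interval from -0.63 to 1.82. This value rests on 1 spot. In untreated WT mouse 1 the first spot stood at 3793 above the empty spots and the second at 189, a log2 difference of 4.40, against at most 0.86 on the other arrays. Brightness varied within the dim spot by 7.08% of its intensity, which lay inside the 4.78% to 15.0% of the 11 other spots. The direction turned to -0.031 without untreated WT mouse 1, to -0.042 with discordant spots left out and to -0.21 with the brighter spot only. Without untreated WT mouse 3 it was 1.03 (limma, unadjusted p = 0.0565, adjusted p = 0.628).

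**Figure D2:**
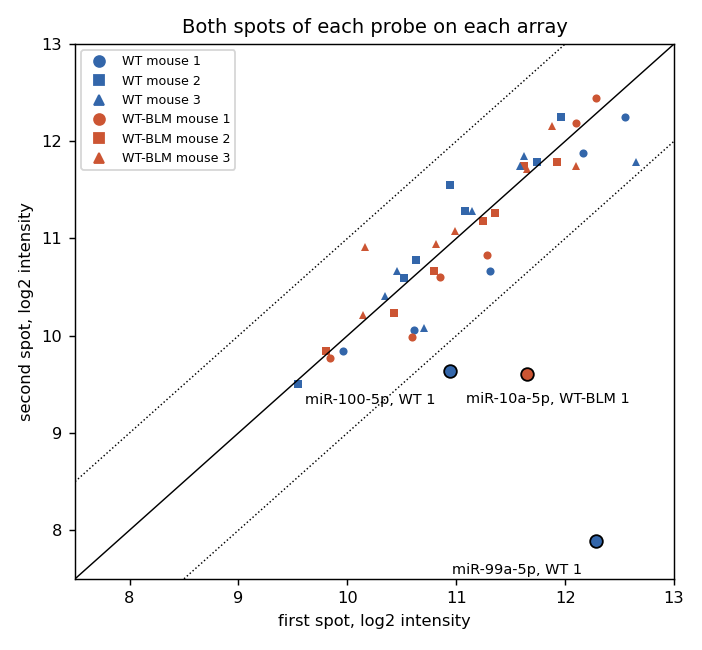
Normalized log2 intensity of the second spot (y axis) against the first spot (x axis) of each of the 7 probes on each array, with colour for the group and shape for the mouse, a solid line of equal spots and dotted lines at a log2 difference of 1. The 3 labelled points lie outside the dotted lines, and miR-99a-5p of untreated WT mouse 1 is the farthest out, with the second spot at 7.89 and the first at 12.29.

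The related miR-100-5p had a log2 intensity of 10.29, 10.70 and 11.21 in untreated WT mice, against 10.29, 10.73 and 10.54 in WT-BLM mice. WT-BLM mouse 1 was level with untreated WT mouse 1, the lowest of its group, and the other WT-BLM mice lay within the untreated WT range, which mouse 3 topped. The log2 fold change was -0.22 (SE 0.29, limma with adjusted p = 1), with a 95% interval from -0.90 to 0.47. In the same mouse, untreated WT mouse 1, its spots also differed, at 1854 and 679, a log2 difference of 1.31. Leaving out discordant spots gave -0.44 (unadjusted p = 0.155 in limma), and leaving out untreated WT mouse 3 gave 0.028. It was -0.040 when scaled to the 75th percentile of all probes and -0.055 with array weights.

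The level of miR-99b-5p, which stands beside let-7e and miR-125a, was 9.90, 9.52 and 10.39 in untreated WT mice, against 9.81, 9.82 and 10.18 in WT-BLM mice. The WT-BLM values lay inside those of the untreated WT mice. The group means of 9.94 ± 0.44 and 9.94 ± 0.21 (SD, n = 3 mice) gave a log2 fold change of -0.0032 (SE 0.28, limma with adjusted p = 1). Its 95% interval ran from -0.66 to 0.66, which is from 0.631-fold to 1.58-fold, so that changes within these bounds were not excluded. The sign turned in 10 of the 25 alternatives, with 0.24 when scaled to the 75th percentile of all probes and from -0.21 to 0.31 with mice left out.

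Of the miR-125 family, miR-125a-5p had a log2 intensity of 10.99, 11.24 and 10.38 in untreated WT mice, against 11.06, 11.21 and 11.03 in WT-BLM mice. Untreated WT mouse 3 was the lowest, and the other 5 mice lay between 10.99 and 11.24. The log2 fold change was 0.23 (SE 0.27, limma with adjusted p = 1), and without untreated WT mouse 3, whose array had the wide spread of empty spots, it was -0.0073. Without untreated WT mouse 2 it was 0.41, and the groups then did not overlap, the setting in which 14.2% of all tested miRNAs had no overlap. It was 0.0043 when scaled to the 75th percentile of the probes detected on all arrays and 0.017 with array weights. No array had discordant spots of this probe, the largest log2 difference being 0.64.

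For miR-125b-5p, the sum of both gene copies, the log2 intensity was 12.40, 12.10 and 11.66 in untreated WT mice, against 12.37, 11.85 and 11.92 in WT-BLM mice. The WT-BLM mice again lay within the range of the untreated WT mice, with untreated WT mouse 3 lowest. The means were 12.05 ± 0.37 and 12.05 ± 0.28 (SD, n = 3 mice), with a log2 fold change of -0.0078 (SE 0.28, limma with adjusted p = 1) and a 95% interval from -0.65 to 0.64. The largest log2 difference between its spots was 0.36.

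With untreated WT mouse 3 and WT-BLM mouse 1 both left out, a setting chosen after seeing the data, the log2 changes were -0.11 for miR-10a-5p, 0.17 for miR-10b-5p, 0.96 for miR-99a-5p, 0.31 for miR-99b-5p, 0.15 for miR-100-5p, 0.013 for miR-125a-5p and -0.36 for miR-125b-5p. The value of miR-99a-5p includes the dim spot of untreated WT mouse 1, here 1 of only 2 untreated WT mice. The signs of miR-99b-5p and miR-100-5p turned, 5 of the 7 then had a higher mean in WT-BLM lungs, and again none had an unadjusted p under 0.05 in limma. The groups, of 2 mice each, then did not overlap for 1 of the 7, miR-125b-5p, where 38.2% of all 275 miRNAs did not overlap.

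**Figure D3:**
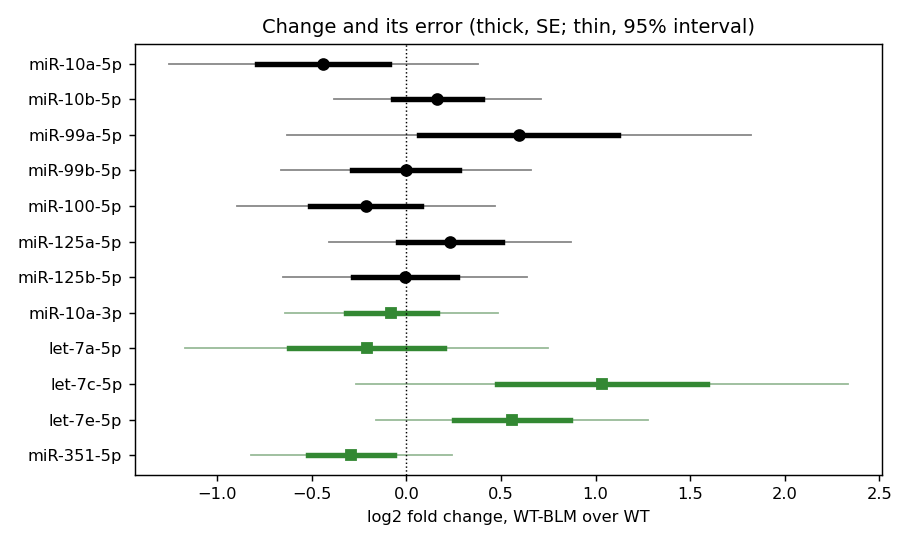
Log2 fold change of WT-BLM over untreated WT (x axis) for the 7 miRNAs in black and for the 5 tested miRNAs of the same loci or seed in green, with the SE as a thick and the 95% interval from limma as a thin line (n = 3 mice a group). All intervals include 0, and among the 7 that of miR-99a-5p is the widest, from -0.63 to 1.82.

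The authors' own normalized intensities were set beside the spots for the 3 probes with discordant spots. For miR-99a-5p these were 3770, 3626 and 4557 in untreated WT and 3606, 3308 and 4110 in WT-BLM mice, without the low value of untreated WT mouse 1. For miR-10a-5p they were 3155, 2429 and 3320 against 2546, 2360 and 3324, and for miR-100-5p 1239, 1763 and 2044 against 1097, 1593 and 1400. The groups overlapped for all 7 on this scale too. With a pseudocount of 50 the log2 fold change from these values was -0.11 for miR-99a-5p, opposite in sign to the 0.59 from the spots, -0.11 for miR-10a-5p and -0.28 for miR-100-5p. Over all tested miRNAs, 5.82% of the 1650 pairs of spots were discordant, and over the 7 it was 7.14% of 42. Untreated WT mouse 1 and WT-BLM mouse 1 had 29 such pairs each, and the other arrays had between 3 and 16.

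**Figure D4:**
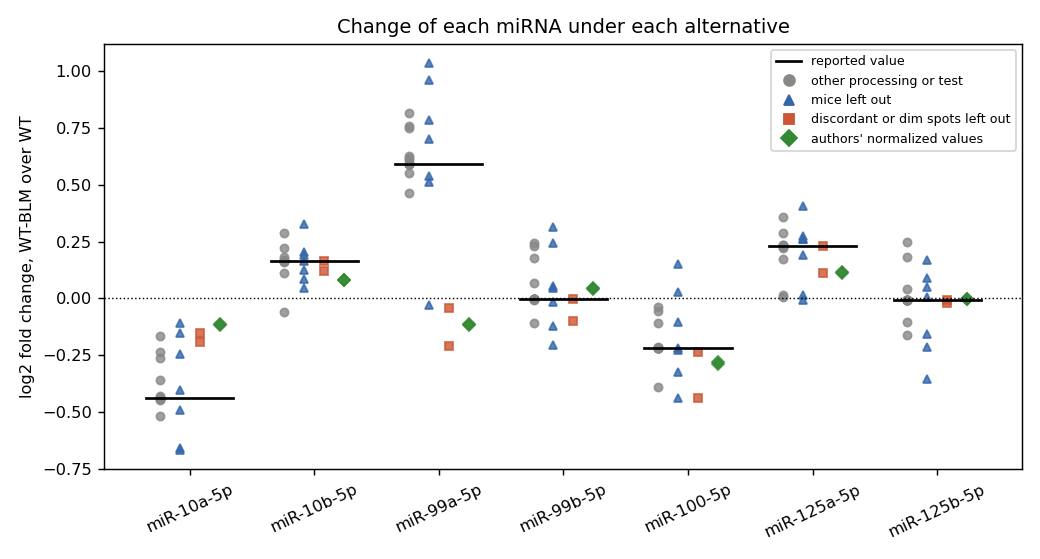
Log2 fold change of WT-BLM over untreated WT (y axis) of each of the 7 miRNAs under each way of processing the arrays, with the reported value as a black bar, other processing in grey, mice left out in blue, discordant or dim spots left out in red and the authors' values in green. The values of miR-99a-5p range from -0.21 to 1.03, and those of miR-10a-5p stay below 0 in all settings shown.

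Members with nearly the same sequence, or with genes at the same locus, were then set against each other within each array, which removes differences in overall brightness between arrays. In 8 pairs, the difference between the log2 changes of the 2 members was tested by permuting the mice exactly, two-sided. The change of miR-10a-5p minus that of miR-10b-5p was -0.60 on the log2 scale (SE 0.45, permutation p = 0.3, adjusted p = 0.914 over the 8 pairs). It was -0.27 with discordant spots left out, -0.31 with the brighter spot only and -0.19 with the authors' values, and lay between -0.86 and -0.28 with mice left out. The change of miR-99a-5p was above that of miR-100-5p, from which 1 base sets it apart, by 0.81 (SE 0.49, permutation p = 0.3, adjusted p = 0.914). This was 0.40 with discordant spots left out, 0.023 with the brighter spot only and 0.17 with the authors' values. It was 0.86 without normalization, where the permutation p was 0.1, the smallest the test can give, and any scaling of whole arrays gives this same value. It lay between 0.41 and 1.02 with mice left out. The changes of miR-99b-5p and miR-125a-5p, from 1 locus, differed by -0.23 (SE 0.53, permutation p = 0.8). Those of miR-99a-5p and miR-125b-5p differed by 0.60 (SE 0.85, permutation p = 0.7), and those of miR-100-5p and miR-125b-5p by -0.21 (SE 0.56, permutation p = 1). In these last 2 pairs the miR-125b-5p probe reads copies at 2 loci, so that they do not compare products of 1 locus. The change of miR-125a-5p stood above that of miR-125b-5p by 0.24 (SE 0.26, permutation p = 0.5). This was 0.11 without normalization and lay between 0.10 and 0.42 with mice left out. Within the miR-99/100 family, miR-99a-5p and miR-99b-5p differed by 0.60 (SE 0.65, permutation p = 0.4) and miR-99b-5p and miR-100-5p by 0.21 (SE 0.28, permutation p = 0.6). The latter difference lay between 0.022 and 0.42 with mice left out and between 0.13 and 0.42 under the other alternatives. The adjusted p were 0.914 or 1 for all 8 pairs, and since 3 mice a group cannot give a p under 0.10, no pair could have passed 0.05. Whether probes for members 1 base apart also bound each other was not tested.

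**Figure D5:**
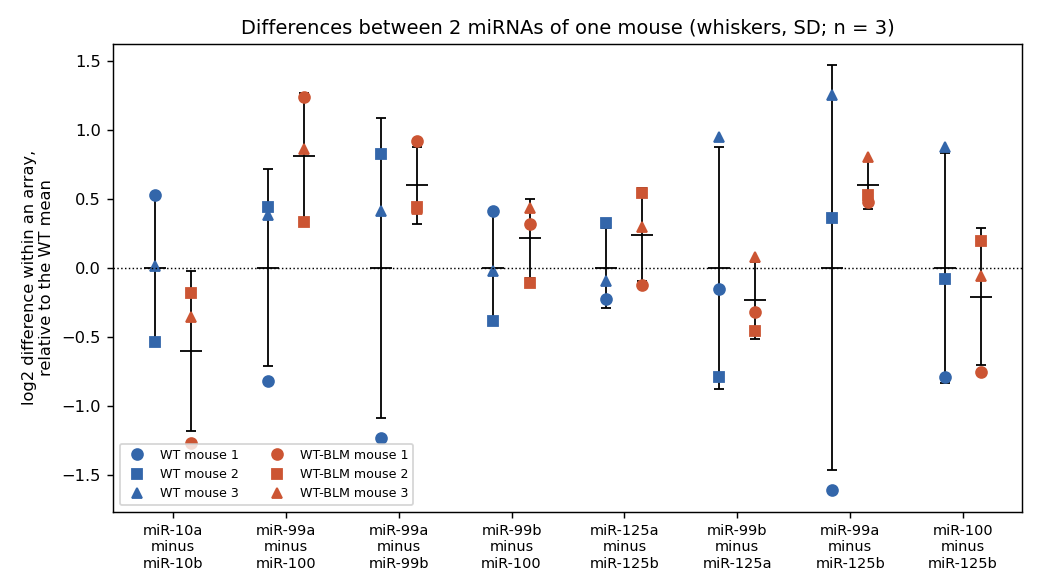
Log2 difference between 2 miRNAs of 1 mouse (y axis), relative to the untreated WT mean of that pair, for the 8 pairs, with untreated WT in blue and WT-BLM in red, the mean as a bar and the SD as whiskers (n = 3). The groups overlap in all 8 pairs, and untreated WT mouse 1, whose second miR-99a-5p spot was dim, is the lowest point in the 3 pairs that hold miR-99a-5p.

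A list of 25 other miRNAs held the opposite arms of the 7, the let-7 miRNAs whose genes neighbour them (with the arms of further copies), the other Hox cluster miRNAs and those with a shared seed. Of these, 24 were on the array, 16 were detected on no array and 5 were tested, 2 with a higher and 3 with a lower mean in WT-BLM lungs. None of these 5 passed the test, and none had groups that did not overlap. Among the let-7 miRNAs, which repress growth genes such as Ras, let-7e-5p from the locus of miR-99b and miR-125a was at 11.70, 12.37 and 11.37 in untreated WT and 12.21, 12.26 and 12.64 in WT-BLM mice. Its log2 fold change was 0.56 (SE 0.31, unadjusted p = 0.109, adjusted p = 1 in limma), with discordant spots on 1 array, and it was 0.35 without untreated WT mouse 3 and 0.84 without untreated WT mouse 2. The value of let-7c-5p, which follows miR-99a, was 11.56, 13.69 and 13.12 in untreated WT and 13.27, 14.33 and 13.87 in WT-BLM mice. Its log2 fold change was 1.03 (SE 0.56, unadjusted p = 0.103, adjusted p = 1 in limma), and it also had discordant spots on 1 array. Untreated WT mouse 1 was the lowest, and without it the log2 fold change was 0.40, the least of the values with 1 mouse left out, which reached 1.50 without untreated WT mouse 2. A mature let-7c or let-7a is made from several genes, so that its level is not that of 1 locus. For let-7a-5p the log2 intensity was 14.48, 14.54 and 14.54 in untreated WT and 13.33, 14.73 and 14.87 in WT-BLM mice, so that WT-BLM mouse 1 was the lowest and the other WT-BLM mice were the highest. The change was -0.21 on the log2 scale (SE 0.41), with discordant spots on 1 array, and it turned to 0.27 without WT-BLM mouse 1. The authors' normalized intensities of let-7a-5p ran the other way, at 22179, 19748 and 19691 in untreated WT and 25996, 26195 and 25324 in WT-BLM mice, and those groups did not overlap, as for 4.73% of the tested miRNAs on that scale. The authors also report a rise of let-7a-5p after BLM by quantitative PCR of lung RNA. The let-7a-2-3p, let-7c-1-3p and let-7e-3p arms were each detected on 1 WT-BLM array and were not tested.

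The arms opposite the 7 miRNAs were mostly dim. Of 8 such arms, 7 were detected on no array, among them both 3p arms of miR-125b shown above, so that the 2 copies of this gene could not be followed apart. The miR-10a-3p arm was detected in 2 untreated WT and 2 WT-BLM mice, and its log2 fold change was -0.081 (SE 0.24), which turned to 0.058 without untreated WT mouse 3 and to 0.038 without WT-BLM mouse 1. The 7 other miRNAs of the Hox clusters, of the miR-196 and miR-615 families, were detected on no array. Of the miRNAs that share the seed of miR-125, miR-351-5p was at 8.51, 8.22 and 8.36 in untreated WT and 7.82, 8.30 and 8.09 in WT-BLM mice, a log2 fold change of -0.29 (SE 0.23, unadjusted p = 0.236 in limma) that was -0.17 without WT-BLM mouse 1, while miR-6367 and miR-6394 were detected on no array.

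Likeness of pattern was measured as the root mean square difference of mean-centred log2 intensities over the 6 mice, against 109 other miRNAs detected on all arrays. The pattern nearest to miR-10b-5p was that of miR-29a-3p, at 0.063. For miR-99b-5p it was miR-3535 at 0.10, for miR-125b-5p miR-690 at 0.13, for miR-100-5p miR-30e-3p at 0.14, for miR-125a-5p miR-34b-5p at 0.17 and for miR-10a-5p miR-34c-3p at 0.20. The nearest to miR-99a-5p was miR-29c-3p at 0.26, which had discordant spots on the array of untreated WT mouse 1 as well. Each of these distances is the smallest of 109. The median distance of a member from all others detected on all arrays was between 0.36 for miR-99b-5p and 0.79 for miR-99a-5p. Flat patterns give small distances, and the members' own SDs ran from 0.22 for miR-10b-5p to 0.79 for miR-99a-5p. No member had another of the 7 as its nearest. Among the 7 themselves the smallest distance was 0.28, between miR-125a-5p and miR-125b-5p, whose own SDs over the 6 mice were 0.31 and 0.29. The distances of miR-99b-5p from miR-10b-5p and from miR-100-5p were both 0.30. The farthest apart were miR-10a-5p and miR-99a-5p, at 1.05, each with discordant spots on 1 array. That was the array of WT-BLM mouse 1 for the former and of untreated WT mouse 1 for the latter. These distances are descriptions over 6 mice, in each of which all miRNAs were read from the same array.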

How the data were processed

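MicroRNA of whole lungs of 3 untreated WT and 3 WT-BLM mice was measured on 1-colour arrays, with 1 mouse per array. The authors deposited scanner intensities per spot and a table of normalized intensity values; how that table was normalized is not given in the sources used here. All table columns were mapped to a sample, with 0 left over.

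Spot intensities were background-corrected in limma 3.58.1 (R 4.3.3) with normexp and an offset of 50, control spots were removed, log2 values were quantile-normalized, and the 2 spots of a probe were averaged. For the 275 miRNAs with detection on 3 arrays or more, lmFit and eBayes gave the tests, with Benjamini-Hochberg adjustment over all 275. The scripts were tested on simulated data. The number of arrays limits the precision, and p-values measure the spread between these mice.

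The 7 members, the lists and the pairs were chosen with earlier results of these data known. Named miRNAs were all members, those of the same loci detected on at least 1 array, both 3p arms of miR-125b for their sequences, those that share a seed, and for each member the miRNA of nearest pattern, beside the cell type markers. Alternatives numbered 25, of which 24 were planned and 1, leaving out untreated WT mouse 3 and WT-BLM mouse 1 together, was chosen after seeing the data. Slide and scan batches were not analysed here.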

Additional observations from a re-analysis of the deposited data

How the results depend on the processing

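Under all 25 alternatives none of the 7 miRNAs had an adjusted or unadjusted p under 0.05, the replicate block included. The mouse numbers share only a number (correlations of deviations 0.16, 0.028 and 0.073), and with the replicate block 0 members were called and 8 of all tested miRNAs had an unadjusted p under 0.05, against 5. That count of all tested miRNAs was 46 without the filter on dim probes, 14 with array weights, 12 with detection by a robust SD, 1 with probes detected on all arrays and from 1 to 20 with mice left out (20 without untreated WT mouse 3, 11 without untreated WT mouse 1, 3 without WT-BLM mouse 1 and 1 without WT-BLM mouse 3). Several directions turned, that of miR-99a-5p, the largest change, among them. The log2 fold change of miR-99b-5p was 0.18 without normalization, 0.069 with cyclic loess, 0.24 with the 75th percentile of all probes, 0.043 and 0.047 with the authors' values, 0.23 with array weights and from -0.21 to 0.31 with mice left out. That of miR-125b-5p was 0.18, 0.043 and 0.25 under the first 3 of these and from -0.36 to 0.17 with mice left out. That of miR-10b-5p was -0.062 with the 75th percentile of probes detected on all arrays, and 0.046 to 0.33 with mice left out. That of miR-99a-5p was -0.042 with discordant spots left out, -0.21 with the brighter spot and -0.11 and -0.12 with the authors' values, and from -0.031 to 1.03 with mice left out. With mice left out, miR-100-5p ranged from -0.44 to 0.15 and miR-125a-5p from -0.0073 to 0.41. The pair difference of miR-99a-5p and miR-99b-5p was -0.020, -0.11, -0.16 and -0.16 under the same 4 settings and from -0.014 to 0.99 with mice left out. That of miR-99a-5p and miR-125b-5p was -0.21, -0.19, -0.11 and -0.11, and from -0.20 to 1.25. That of miR-99b-5p and miR-125a-5p ranged from -0.61 to 0.25 and that of miR-100-5p and miR-125b-5p from -0.60 to 0.24. The median of the 7 was 0.18 without normalization, 0.25 with the 75th percentile of all probes and from -0.016 to 0.15 with mice left out. Groups did not overlap for 1 member with the 75th percentile of detected probes, miR-100-5p at -0.39, where 2.91% of all tested miRNAs did not overlap, and for 0 to 2 with 1 mouse left out, where 10.2% to 21.5% did not (miR-10a-5p at -0.67 and miR-125a-5p at 0.41 without untreated WT mouse 2, and miR-10b-5p at 0.33 without WT-BLM mouse 2). Beyond what is shown for single spots, the cause was not tested.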
